A study of Ovis aries with 18 samples.

Results

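TLR4, CD14, TLR2, MYD88, IRAK4 and IRF3 encode receptor and signalling proteins through which blood leukocytes sense bacterial lipopolysaccharide (LPS). They were measured in whole blood of 6 sheep on Agilent sheep gene expression arrays. All probes whose transcript accession belongs to these genes were taken, without regard to their values. This gave 9 of 15008 non-control probes, and 6 of the 944 genes that could be named on the array. Blood of each animal was split and kept for 90 minutes with phosphate-buffered saline (PBS), with LPS, or with monophosphoryl lipid A (MPLA). The labels give the amounts as 1 µg of LPS and 10 µg of MPLA, so agonist and amount cannot be told apart between them. The animals were adult ewes of about 3 years, and the labels give no other difference between the groups. Each of the 18 blood aliquots was hybridised to its own one-colour array, and the animals are named 71Y, 51Y, 20, 170, 80 and 65Y. The aliquots of a treatment came from separate animals, so the spread between them is between animals.

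LPS is handed by a serum binding protein to CD14, a surface protein rich on monocytes, and from there to TLR4 and its partner protein MD-2. The activated receptor recruits the adaptor MYD88, which assembles IRAK4 and related kinases and leads to NF-kB and to cytokine genes such as TNF. In endosomes TLR4 uses another adaptor and reaches the transcription factor IRF3, which drives type I interferon genes. TLR2 is the receptor for bacterial lipoproteins and uses the same MYD88 route, paired with TLR1 or TLR6. MPLA is a lipid A with a phosphate group removed, used as a vaccine adjuvant, and it also acts through TLR4.

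Some arrays were brighter than others. Each was scaled by the 75th percentile of its own signal, which ran from 24.8 to 124.2 with a median of 64.0. Between 23.9% and 45.1% of the probes were well above background, with a median of 31.2% on PBS, 33.3% on LPS and 34.4% on MPLA arrays. That percentile had a median of 59.0 on the PBS arrays, 62.8 on the LPS arrays and 67.4 on the MPLA arrays, and the 3 ranges overlapped. Levels are given below on the log2 scale relative to that percentile, so that a level of 0 lies at it. A probe was counted as detected on an array where its spot, or most of its 5 spots for TLR2 probe A_70_P050916, was flagged well above background. The levels of different probes were not set against each other, since probes differ in how brightly they hybridise. As whole blood was measured, fewer cells of a type and less RNA per cell cannot be told apart.

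Detection divided the 6 genes. Both probes of CD14 and IRAK4 probe A_70_P031666 were detected on all 18 arrays. The other IRAK4 probe, A_70_P041036, was detected on 11 arrays. The TLR2 probes were detected on 9 (A_70_P050916) and 8 (A_70_P050917) arrays. The TLR4 probe was detected on 3 arrays. The MYD88 and IRF3 probes were detected on none. No member probe was saturated or carried an outlier flag on any array. A test of change was made where a probe was detected on all 6 arrays of at least 1 treatment. The 3 probes of CD14 and IRAK4 with full detection passed that filter, among 4122 of all probes, and the other 6 did not.

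The receptor itself, TLR4, was mostly below what the array could measure. Its single probe, A_70_P049612, was detected on 1 array of each treatment. Those were the PBS and MPLA arrays of animal 71Y, with processed signals of 133.8 and 71.6, and the LPS array of animal 20, with a signal of 25.1. On the other 15 arrays the signal lay between 3.92 and 18.4, and on 6 arrays it sat at the array's minimum value. In log2 levels the probe ran from −3.19 through a median of −2.89 to 0.11 with PBS. With LPS it ran from −3.67 through −3.10 to −2.14, and with MPLA from −3.55 through −2.30 to −0.47. The 3 treatments overlapped. Animal 71Y was not high in all its aliquots, since TLR4 was undetected on its LPS array. The 3 arrays on which TLR4 was detected had a 75th percentile of 99.3 to 124.2, against 24.8 to 99.3 on the other 15. The part of array brightness in these detections was not tested. No fold change is given for TLR4, because each treatment had values above background on 1 array alone.

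**Figure D1:**
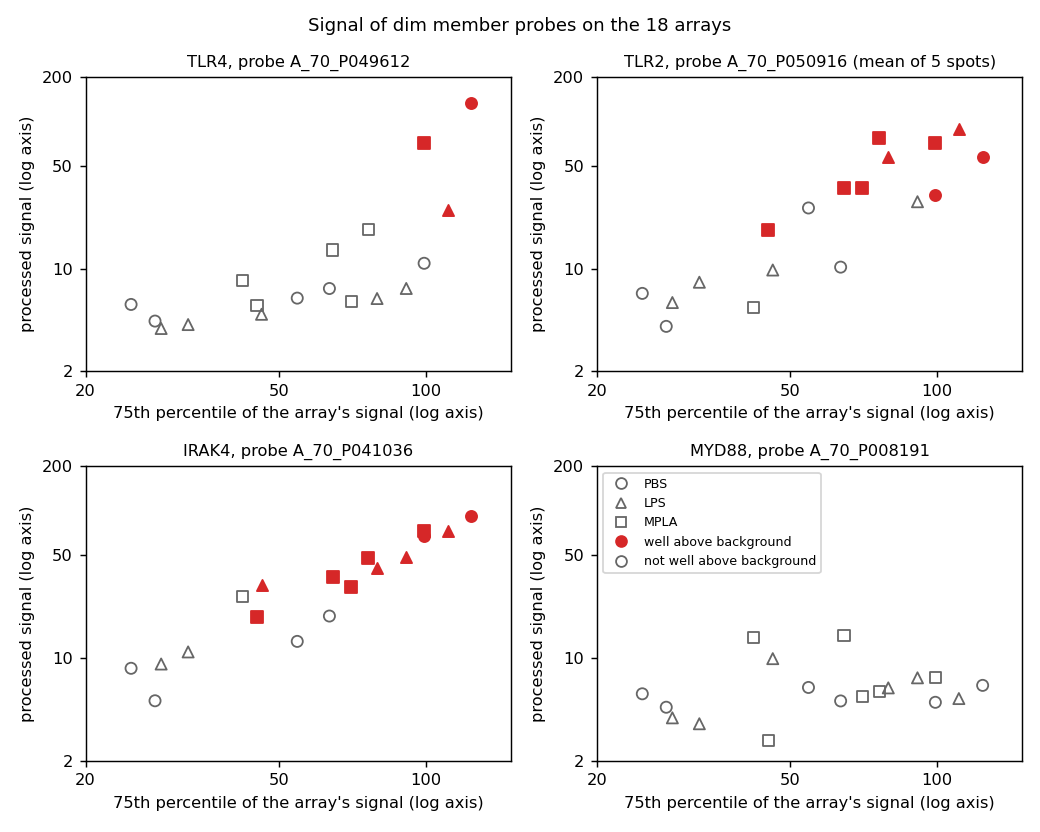
Processed signal of the TLR4, TLR2 (A_70_P050916), IRAK4 (A_70_P041036) and MYD88 probes on each of the 18 arrays against the 75th percentile of that array's signal, both on log axes, with marker shape for treatment and red filling for arrays where the probe was well above background. TLR4 was detected on 3 arrays whose 75th percentile was 99.3 or more, TLR2 and IRAK4 mostly on the brighter arrays, and MYD88 on none.

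The signalling adaptor MYD88 and the interferon-inducing factor IRF3 had no detected value. The MYD88 probe A_70_P008191 reached at most a processed signal of 14.2 and sat at the array minimum on 12 of 18 arrays. The IRF3 probe A_70_P050746 reached at most 9.72 and sat at the minimum on 14. These printed values are not themselves bounds, since an undetected probe is bounded only by what its array could detect. The dimmest probe counted as detected on an array had a log2 level of −2.52 to 0.18, depending on the array. A dark probe also need not mean a missing transcript, since the ACTB probe, for an actin that all cells make, was detected on 0 of 18 arrays. No change with LPS or MPLA could be measured for MYD88 or IRF3.

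CD14, the co-receptor that passes LPS to TLR4, was detected in all aliquots and its means were lower after both agonists. Neither difference passed the test across all probes. With probe A_70_P030286 the log2 level ran from 1.22 through a median of 1.57 to 2.60 with PBS, from 1.35 through 1.48 to 2.02 with LPS, and from 0.56 through 1.33 to 1.98 with MPLA. With probe A_70_P030287 it ran from 1.54 through 1.70 to 2.58 with PBS, from 1.14 through 1.52 to 1.99 with LPS, and from 0.66 through 1.41 to 2.08 with MPLA. Animal 80 had the highest mean level of both probes over its 3 aliquots, animal 20 the lowest, and the groups overlapped throughout. The animals' mean levels spanned 1.01 and 0.96 log2 units with the first and the second probe, while the treatment means spanned 0.43 and 0.48.

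Within animals, CD14 with LPS differed from PBS by −0.18 ± 0.32 log2 units (SD, n = 6) with the first probe, lower in 4 of 6 animals. With the second probe the difference was −0.32 ± 0.22, lower in 5 of 6. The 95% intervals of limma's fit ran from −0.55 to 0.19 and from −0.65 to 0.01. With MPLA the difference from PBS was −0.43 ± 0.48 with the first probe, lower in 4 of 6 animals, with an interval of −0.87 to 0.01. With the second probe it was −0.48 ± 0.35, lower in 5 of 6, with an interval of −0.86 to −0.09. That last value corresponds to 0.719 times the PBS signal, with an interval of 0.551 to 0.938. Its unadjusted limma p was 0.0202, and after Benjamini-Hochberg adjustment over 4122 probes it was 0.65. The adjusted limma p of the first probe with MPLA was 0.66. The median change with MPLA over all tested probes was itself −0.09, against −0.01 with LPS. Both agonists were set against the same PBS arrays, so their changes are not independent.

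The CD14 probes moved alike, with the same sign in 5 of 6 animals for each agonist. By slide, the first probe changed on average with LPS by −0.27, −0.23 and −0.027 on slides 1, 2 and 3, and the second by −0.33, −0.39 and −0.24, each slide holding 2 animals. With MPLA the first changed by −0.27 and −0.55 on slides 2 and 3, and the second by −0.46 and −0.56. On slide 1 only animal 71Y had both aliquots, with changes of 0.13 and 0.032, because the MPLA array of animal 170 lay on another slide than its PBS array. The size of the MPLA difference varied with the background and scaling settings. It was −0.18 with the second probe and −0.12 with the first after normexp background correction of the median signal, and −0.24 and −0.19 after scaling to the array median. The normexp offset added to each signal was 50, beside 75th percentiles of 24.8 to 124.2. On the PBS arrays of animals 51Y, 170 and 80, 52.3%, 52.5% and 51.8% of the probes sat at the array minimum. The median of those arrays was thus that minimum. The part of the offset and of the minimum values in these differences was not tested. LYZ, which encodes the lysozyme of monocytes and neutrophils, is the other named gene of the monocyte list and was detected on all 18 arrays. It changed by −0.11 ± 0.20 with LPS and −0.17 ± 0.47 with MPLA (A_70_P051227). The part of monocyte number in the CD14 values was not tested.

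**Figure D2:**
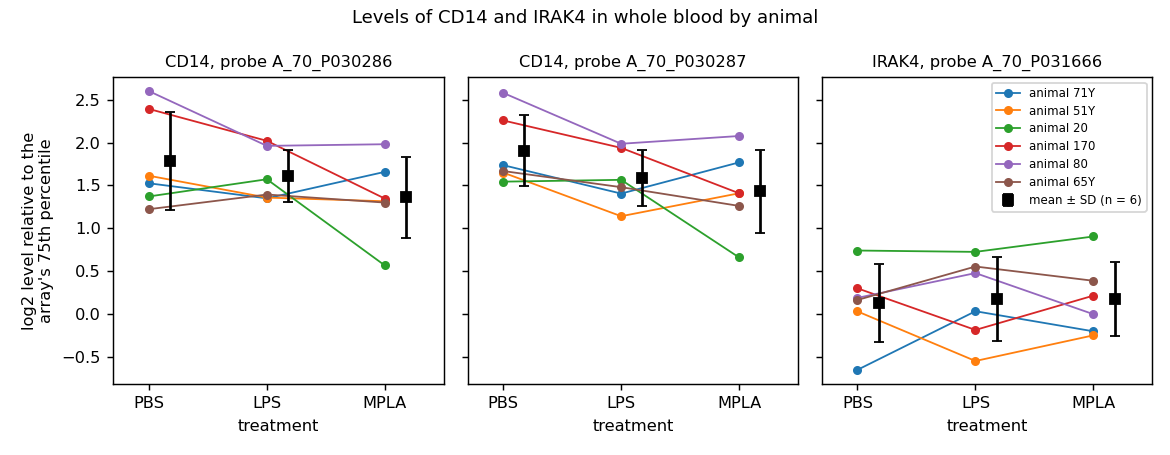
Log2 levels relative to the array's 75th percentile of the CD14 probes and the IRAK4 probe detected on all arrays, by treatment, with a line for each of the 6 animals and black squares for the mean ± SD. CD14 was lower with MPLA than with PBS in 4 and 5 of 6 animals, while the IRAK4 lines cross and its treatment means lie within 0.05 log2 units.

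IRAK4, the kinase that MYD88 recruits first, had nearly the same mean in the 3 treatments with its detected probe. With A_70_P031666 the log2 level ran from −0.66 through a median of 0.17 to 0.74 with PBS, from −0.55 through 0.25 to 0.72 with LPS, and from −0.25 through 0.10 to 0.90 with MPLA. Animal 20 was highest in each treatment. The animals' mean levels spanned 1.07 log2 units and the treatment means 0.05. The difference from PBS was 0.05 ± 0.50 with LPS, higher in 3 of 6 animals, with a limma interval of −0.40 to 0.50. With MPLA it was 0.05 ± 0.28, again higher in 3 of 6, with an interval of −0.31 to 0.40. These intervals do not show that IRAK4 was unaffected. They leave room for a rise of 0.50 or a fall of 0.40 log2 units.

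The other IRAK4 probe gave another picture. A_70_P041036 was detected on 2 PBS, 4 LPS and 5 MPLA arrays, where the median share of all probes detected was 31.2%, 33.3% and 34.4%. Its log2 level ran from −2.44 through −1.63 to −0.44 with PBS, from −1.65 through −0.94 to −0.56 with LPS, and from −1.24 through −0.78 to −0.46 with MPLA. The arrays on which it was detected had a median 75th percentile of 79.5, against 32.5 on the rest. When detection on 4 of 6 arrays of a treatment was enough for a test, it differed from PBS by 0.42 ± 0.65 with LPS and by 0.60 ± 0.86 with MPLA. The probe passed that filter only through its LPS and MPLA arrays, so the filter favours a rise. Differences from undetected PBS values also have no exact size. The adjusted limma p was 1.00 with LPS and 0.69 with MPLA. With undetected values raised to the dimmest detected signal of their array, the differences turned to −0.18 and −0.28. Raised values alone made this turn. On the dimmest array, that of animal 170 with PBS, an undetected −1.55 was raised to 0.18. That lies above the probe's highest detected level of −0.44. The 2 IRAK4 probes changed in the same direction in 3 of 6 animals with LPS and in 1 of 6 with MPLA.

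TLR2 was detected more often after MPLA, but mostly near the limit of measurement. Probe A_70_P050916 was detected on 2 PBS, 2 LPS and 5 MPLA arrays, and probe A_70_P050917 on 2, 2 and 4. The median share of all probes that were detected also differed, at 31.2%, 33.3% and 34.4% in that order. Between PBS and MPLA the first probe gained detection in 3 animals and lost it in 0, and the second gained it in 3 and lost it in 1. With LPS each probe gained detection in 1 animal and lost it in 1. The arrays on which the first probe was detected had a median 75th percentile of 79.5, against 42.0 on the rest. With the second probe the medians were 89.4 and 43.5. The part of array brightness in these counts was not tested.

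In log2 levels, TLR2 probe A_70_P050916 ran from −2.78 through a median of −1.76 to −1.08 with PBS, from −2.28 through −1.84 to −0.33 with LPS, and from −2.95 through −0.93 to 0.01 with MPLA. Probe A_70_P050917 ran from −2.79 through −1.98 to −0.84 with PBS, from −3.23 through −1.36 to −0.70 with LPS, and from −3.14 through −0.68 to 0.24 with MPLA. Animal 80 had the highest mean of both probes and animal 170 the lowest. The 5 spots of the first probe had a median coefficient of variation of 20.9% on arrays where it was detected. All 5 spots were above background on 7 arrays, none on 7, and some on 4.

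Both TLR2 probes passed the filter of 4 of 6 arrays only through their MPLA arrays, and were detected on 2 of 6 PBS arrays. The filter thus favours a rise with MPLA, and differences from undetected values have no exact size. Under it, the TLR2 difference between MPLA and PBS was 0.76 ± 1.08 with the first probe, higher in 5 of 6 animals, with a limma interval of −0.05 to 1.57. Animal 170 went the other way, by −1.08. With the second probe it was 0.73 ± 1.38, higher in 4 of 6. The adjusted limma p was 0.69 for both. With LPS the differences were 0.35 ± 0.71 and 0.19 ± 0.94, each with an adjusted limma p of 1.00. Single animals ran from −0.56 to 1.31 (animal 20) with the first probe. With the second they ran from −1.11 to 1.48 (animal 65Y). With undetected values raised to the dimmest detected signal of their array, the MPLA differences shrank to 0.16 and 0.32, and the LPS differences to 0.11 and 0.032. Raised values alone made these shifts, as on the PBS array of animal 170, where −1.87 and −2.12 became 0.18.

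**Figure D3:**
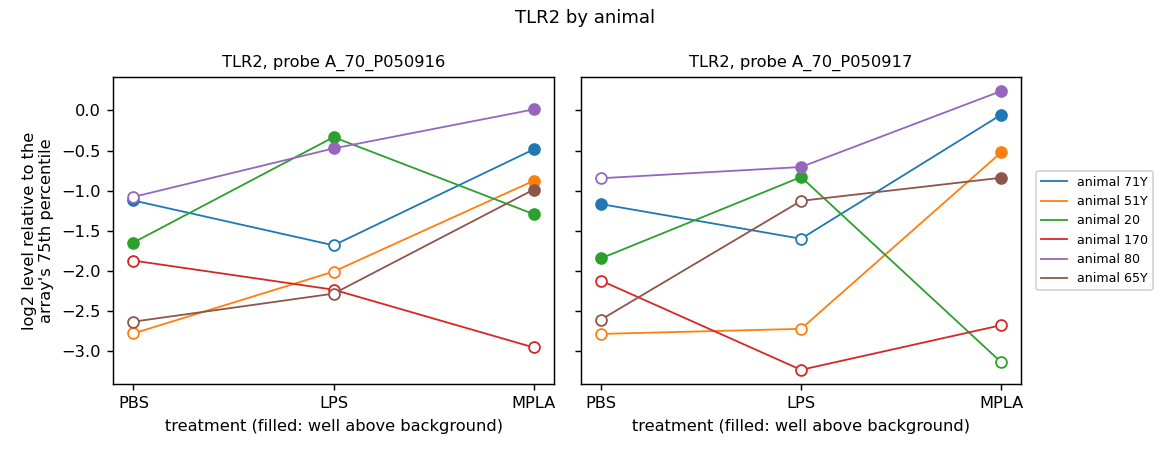
Log2 levels relative to the array's 75th percentile of the TLR2 probes by treatment, a line for each of the 6 animals, with filled points where the probe was well above background. Detection rose from 2 PBS arrays to 5 MPLA arrays with A_70_P050916 and to 4 with A_70_P050917, and animal 170 was undetected in all its aliquots. Over all probes the median share detected was 31.2% with PBS and 34.4% with MPLA.

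Across the members, 0 of the 3 tested probes passed an adjusted limma p of 0.05 in any comparison. At an unadjusted limma p under 0.05 the count was 0 of 3 with LPS, 1 of 3 with MPLA (CD14 probe A_70_P030287) and 0 of 3 between MPLA and LPS, where the shares over all tested probes were 3.78%, 6.94% and 4.61%. With LPS that CD14 probe had an unadjusted limma p of 0.0574. Members were not counted by the methods' t-test without its fold threshold. The methods' t-test with its fold threshold called 0 of 3 in each, and 1.72%, 2.23% and 1.26% of all tested probes. Over all 4122 tested probes limma's adjusted p called 0.898% with LPS, 0.995% with MPLA and 0.0485% between the agonists. Read against these shares, a count of 0 of 3 is not a result about the members. Without animal 20 the calls over all probes rose from 41 to 284 with MPLA and from 2 to 18 between the agonists, and those between the agonists fell to 0 without 71Y, 51Y, 80 or 65Y. The members called stayed at 0 of 3 in each case. Under the filter of 4 of 6 arrays 0 of 6 member probes were called, where the shares over all probes were 0.641%, 0.741% and 0.02%. The TLR2 probes and IRAK4 probe A_70_P041036 entered that count only through agonist arrays. It too is not a result about the members.

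In the direct comparison of the agonists no member passed the test. MPLA minus LPS was −0.25 ± 0.49 and −0.16 ± 0.49 log2 units with the CD14 probes, with limma intervals of −0.71 to 0.22 and −0.62 to 0.31. Animal 20 was lowest with both probes, at −1.01 and −0.91, and the medians over animals were −0.07 and −0.06. For IRAK4 probe A_70_P031666 it was −0.0002 ± 0.35, with an interval of −0.41 to 0.41. The adjusted limma p was 0.84, 0.87 and 1.00 in that order. These intervals do not show that the agonists acted alike on these genes, and the amounts differed.

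The receptor and signalling genes were set against TNF, the cytokine gene at the end of the MYD88 route, in the same aliquots. TNF (A_70_P030271) rose by 1.42 ± 0.35 log2 units with LPS and 1.14 ± 0.33 with MPLA, with adjusted limma p of 0.0021 and 0.0069. IL1B and IL10, the other cytokine genes of the list that were detected on all PBS arrays, rose by 2.53 and 3.08 with LPS and by 2.62 and 3.60 with MPLA. The TNF change exceeded that of each CD14 probe and of the IRAK4 probe in 6 of 6 animals with both agonists. The mean excess ran from 1.09 to 1.74 log2 units over the 3 probes and both agonists. TNF was taken for scale with its rise already known, so this is a description with no test.

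**Figure D4:**
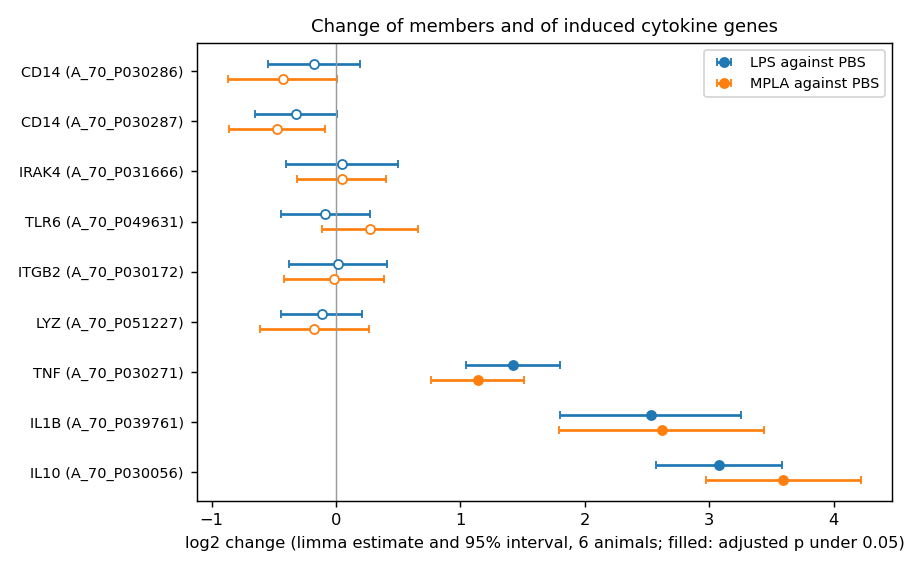
Log2 changes from PBS with 95% intervals of limma's fit over 6 animals, in blue for LPS and orange for MPLA, filled where the adjusted p was under 0.05. The plotted probes of CD14 (2), IRAK4, TLR6, ITGB2 and LYZ (1 each) lie between −0.48 and 0.28, and TNF, IL1B and IL10 at 1.14 or more.

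The rest of the pathway was thinly covered. Of 61 further genes of the TLR4 pathway and its neighbours, 12 could be named on the array, 7 of these were detected on no array and 2 could be tested. None of the 3 further adaptors and 22 kinases and ubiquitin ligases in the list was among the named probes. In the receptor complex, ITGAM and ITGB2, the chains of the integrin CR3 that also binds LPS, differed in detection. ITGAM was detected on 0 of 18 arrays and ITGB2 on all 18. Among the other Toll-like receptors, TLR1, TLR5, TLR8 and TLR9 were detected on no array, TLR7 on 1, and TLR3 on 3 and 6 with its 2 probes. TLR6, the partner of TLR2, was detected on all 18 arrays with 2 of its 3 probes. The transcription factor genes FOS and IRF1 were detected on none. NFKBIA, the NF-kB inhibitor that NF-kB itself induces, was detected on 3 PBS, 5 LPS and 5 MPLA arrays. The median share of all probes detected was 31.2%, 33.3% and 34.4% in these treatments.

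Limma called 0 of the 2 tested pathway genes in each comparison. TLR6 (A_70_P049631) differed from PBS by −0.09 ± 0.30 with LPS and by 0.28 ± 0.36 with MPLA, the latter higher in 5 of 6 animals with an adjusted limma p of 0.66. That MPLA value was 0.14 without animal 20 and 0.51 with median scaling. Its other tested probe, A_70_P049632, gave −0.21 ± 0.51 and 0.30 ± 0.34. There animal 170 was lowest with LPS, at −1.18, and animal 20 highest with MPLA, at 0.91. The medians over animals were −0.09 and 0.26. MPLA minus LPS in TLR6 was 0.36 ± 0.42 and 0.51 ± 0.58 with these probes, with unadjusted limma p of 0.0942 and 0.0495 and an adjusted p of 0.84 for both. ITGB2 (A_70_P030172), present on most leukocytes, differed from PBS by 0.01 ± 0.39 and −0.02 ± 0.39. The median change over the 2 tested genes was −0.04 with LPS and 0.13 with MPLA, beside −0.01 and −0.09 over all tested probes.

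Which genes followed the members over the 18 arrays was described by Pearson's r among 373 named genes with a tested probe. The levels most like CD14 (A_70_P030287) were those of GATA3, a T cell transcription factor, with r of 0.72, the secreted stress protein gene MANF with 0.68, and the death receptor gene FAS with 0.63. For IRAK4 (A_70_P031666) they were GLCE, an enzyme of heparan sulfate synthesis, with 0.86, HSD11B1, which regenerates active glucocorticoid, with 0.85, and CRBN, a ubiquitin ligase subunit, with 0.83. The points share animals, slides and array scaling, and each r was the highest among many, so these are descriptions.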

How the data were processed

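Sheep whole blood from 6 animals under 3 treatments gave 18 one-colour arrays on 3 slides. The deposited scanner files, made by the authors with Agilent Feature Extraction 11.5.1.1, hold processed intensity, background-corrected by the software, with non-significant spots set to an array minimum. The submitters' protocols name 2 alternative RNA amplification kits without saying which array had which. A deposited table gives the authors' values as a ratio to a divisor per array, and was used as an alternative. The divisor was 0.984 to 0.995 of the array's 75th percentile on 16 arrays but 0.790 for animal 170 with LPS and 0.793 for animal 80 with MPLA, for a reason not given in the sources used here.

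Here, spots of a probe were averaged, control spots were left out, and log2 of the processed intensity minus the array's 75th percentile over 15008 probes was taken. Genes were named by RefSeq accession: 2200 probes had one and 1265 matched a symbol. The check for pairing found a mean correlation of 0.593 between the deviations of the same animal's arrays (lowest 0.13 of 18). Each comparison used the 12 arrays of 2 treatments with the animal as a block in limma 3.58.1 (R 4.3.3), with Benjamini-Hochberg adjustment over 4122 tested probes. The methods' t-test is paired, with a threshold of 1.5-fold. The fit was tried on simulated data with 200 changed probes. Its noise was independent between probes, and its planted changes were larger than those of the tested members. It therefore does not bear on changes of the members' size. The number of arrays limits precision.

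The members and the gene lists were chosen with earlier results of these data known. Named genes were the members, the tested pathway genes, up to 3 genes most correlated with each tested member, and cytokine genes for scale. Of 51 marker genes, 13 were named on the array. No neutrophil, platelet or muscle gene was among them. CD14 and LYZ (monocyte), CD3D and CD3E (T cell), GNLY (NK cell), HBB (erythroid), ITGB2 (all leukocytes) and GAPDH (housekeeping) were detected on all 18 arrays, CD4 and ACTB on none, the B cell gene CR2 on some, and the liver genes ALB and TTR on at most 3 arrays. No sequence is printed for lack of a reference used here.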

Additional observations from a re-analysis of the deposited data

Results flagged for a closer look

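Of 45 sets of 6 values examined (a probe in a treatment, or its changes), 1 held a value set apart from the rest, where chance alone would do so in about 1 in 20. The TLR4 log2 level of animal 71Y with PBS was 0.11, and those of the other 5 animals lay between −3.19 and −2.12, none of them above background. The nearest, animal 170, sat at the minimum signal of the dimmest array. Its gap to the nearest was 0.675 of the whole range, above Dixon's 95% critical value for 6 values, but a gap to values below background has no exact size. That array was the brightest of the 18, with a 75th percentile of 124.2. The same animal's LPS aliquot had TLR4 at the array minimum. The cause was not tested.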

How the results depend on the processing

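Member probes called stayed at 0 in each comparison under 20 alternatives, and pathway genes called at 0 under 21. CD14 kept its lower mean with LPS and with MPLA under all 20, from −0.39 to −0.09 and from −0.58 to −0.12 log2 units over both probes. Some of the 20 could not change that mean, because both CD14 probes were detected on every array and each animal had every treatment. These were the looser filter, no filter, no replicate block, a fit of all arrays at once, both t-test settings and raised undetected values. With LPS the slide block could not either, since each animal's LPS and PBS arrays shared a slide. The sign could turn only under the remaining settings. The lowest adjusted limma p of any CD14 change was 0.131, for A_70_P030287 with MPLA without animal 20. Between MPLA and LPS CD14 turned to 0.10 and 0.13 with normexp and to 0.039 (A_70_P030287) with median scaling. IRAK4 (A_70_P031666) turned to −0.016 with MPLA with the slide as a block, and between the agonists to 0.19 with median scaling, 0.018 with normexp and 0.0072 with array brightness as a covariate. ITGB2 turned to −0.17 (normexp) and −0.0016 (brightness) with LPS, and with MPLA to 0.057 (quantile), 0.22 (median scaling), 0.088 (normexp) and 0.038 (authors' table). LYZ with MPLA turned to 0.065 (median scaling) and 0.0065 (normexp). Leaving out 1 animal gave IRAK4 −0.080 (without 71Y) to 0.17 with LPS, −0.033 (without 71Y) to 0.11 with MPLA and −0.080 to 0.096 (without 80) between them, ITGB2 −0.091 (without 170) to 0.14 and −0.091 to 0.12 (without 20), and TLR6 −0.15 to 0.012 (without 170) with LPS. The cause of these turns was not tested. Median scaling moved the median change of all tested probes with MPLA from −0.09 to 0.14, and normexp that with LPS from −0.01 to −0.17 and that between the agonists from −0.08 to 0.21. Normexp used an offset of 50. With median scaling, the PBS arrays of animals 51Y, 170 and 80 were divided by their minimum value, which was their median.

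Probes called with LPS, 37, came to 2 with normexp at its offset of 50, 71 by the methods' t-test and 10 after its adjustment. Those with MPLA, 41, came to 24 without a filter, 26 with the slide as a block, 92 by the methods' t-test and 14 after adjustment. Leaving out animal 20 raised them to 284, and the lowest count without 1 animal was 35. Between the agonists, 2 calls became 0 with normexp, no filter, the slide block or no replicate block, 1 with the filter of 4 of 6 arrays, 52 by the methods' t-test and 1 after adjustment, and 0 to 18 (without animal 20) without 1 animal. Without the replicate block, which ignores the pairing, the calls numbered 29 for each agonist, and no member's call changed. Brightness as a covariate, and raised values with the looser filter, were chosen after seeing the data. TNF and IL1B were not called with either agonist under 2 or 3 of 20 alternatives, nor IL10 with LPS under normexp. Undetected probes have a bound alone, so signal over background limits TLR4, MYD88, IRF3 and many TLR2 values.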
